A study of Rattus norvegicus with 6 samples.

Results

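Of the 32883 Ensembl gene identifiers counted in rat vascular smooth muscle cells, 6 were taken by identifier as messenger RNAs made from the mitochondrial genome. They are the cytochrome c oxidase subunits Mt-co1 (ENSRNOG00000034234), Mt-co2 (ENSRNOG00000030371) and Mt-co3 (ENSRNOG00000030700), cytochrome b Mt-cyb (ENSRNOG00000031766), and the ATP synthase subunits Mt-atp6 (ENSRNOG00000031979) and Mt-atp8 (ENSRNOG00000033299). The names came with the list of identifiers, not from the deposited tables, which hold identifiers only. All 6 passed the filter on low counts, as did 12044 identifiers in all. Cells of the sg-MIAT group, genotype MIAT overexpression, carried a CRISPR-dCas9 system (a Cas9 that binds DNA without cutting it) and a guide meant to raise the long non-coding RNA MIAT from its own locus (3 samples). Cells of the sg-U6 group, genotype WT, carried that system with a negative control guide (3 samples). The labels give the tissue only as vessel, and strain, age, sex and the activating part of the dCas9 system are not stated there. The samples of each group are numbered 1 to 3 with no word on whether each was its own culture or animal, so the spread behind every p-value here may be technical.

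The mitochondrial genome is a small circle that is transcribed into long precursor RNAs, which are cut, mostly at transfer RNAs between genes, into separate messengers. Most of these messengers receive short poly(A) tails, so they are caught by oligo(dT) selection. Their proteins sit in the inner mitochondrial membrane: cytochrome b passes electrons within complex III, the cytochrome c oxidase subunits form the core of complex IV, where oxygen is reduced, and the ATP synthase subunits belong to the membrane part of complex V, through which protons flow back. Mt-atp8 and Mt-atp6 lie on a shared messenger with overlapping reading frames. Smooth muscle cells draw on both glycolysis and this chain for ATP.

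Library totals ran from 13128977 to 18257865 counts. On the first principal component of log2 CPM (64.8% of the variance), the libraries sg-MIAT 1 and sg-U6 1 scored -62.5 and -72.4 and stood apart from the other 4, which scored 11.9 to 76.1. Shares, levels, fold changes and ratios are therefore also given without them. The targeted transcript and the smooth muscle identity of the cells were not checked here, since no other identifier was paired with a name.

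Together the 6 transcripts took 2.88%, 3.14% and 3.64% of all counts in sg-MIAT 1, 2 and 3. In sg-U6 1, 2 and 3 they took 2.51%, 3.99% and 3.82%. The groups overlapped, with means of 3.22% ± 0.382 (SD, n = 3) for sg-MIAT and 3.44% ± 0.810 (SD, n = 3) for sg-U6. The lowest share of each group was in its library numbered 1. Without these libraries, both sg-MIAT shares lay below both sg-U6 shares, with means of 3.39% and 3.91%. With TMM-scaled library totals the gap was narrow: 3.13% and 3.52% in sg-MIAT 2 and 3, against 3.81% and 3.55% in sg-U6 2 and 3. In bulk RNA, fewer cells of a type and less RNA per cell cannot be told apart, and this holds for all levels below. Levels are in CPM (counts per 1000000 counts of the library, after TMM correction). They are compared between libraries and not between transcripts, since no transcript length was used.

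Mt-co1 encodes the subunit of complex IV that holds its heme and copper reaction centre. It had 18205, 16434 and 18789 CPM in sg-MIAT 1, 2 and 3. Its levels in sg-U6 1, 2 and 3 were 16407, 19637 and 18476 CPM. The values of the groups interleaved, and the highest library exceeded the lowest by only 1.20-fold. The log2 of its fitted ratio of sg-MIAT to sg-U6 (log2 fold change) was -0.03 ± 0.26 (SE), with a 95% interval of -0.64 to 0.59 (edgeR adjusted p = 0.9995). That interval runs from 1.56-fold lower to 1.50-fold higher in sg-MIAT. The spread of Mt-co1 was small among genes: 96.1% of those tested had a larger SD of log2 CPM over the 6 libraries. By the coefficient of variation in edgeR the contrast was weaker, with 80.8% of genes above it.

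Mt-co2 encodes the subunit that takes electrons from cytochrome c. It had 2016, 910.5 and 1078 CPM in sg-MIAT 1, 2 and 3, and 1469, 1010 and 483.7 CPM in sg-U6 1, 2 and 3. The libraries numbered 1 were the highest of each group, and sg-U6 3 was the lowest of all, 4.17-fold below sg-MIAT 1. Group means were 1335 ± 596 CPM for sg-MIAT against 988 ± 493 CPM for sg-U6 (SD, n = 3 each). The log2 fold change was 0.43 ± 0.48 (SE; 95% interval -0.72 to 1.59, edgeR adjusted p = 0.9995). It rested on single libraries: it was 0.001 without sg-MIAT 1, 0.11 without sg-U6 3 and 0.84 without sg-U6 1.

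Mt-co3 encodes the third core subunit of complex IV. It had 4755, 6167 and 6229 CPM in sg-MIAT 1, 2 and 3. The sg-U6 libraries 1, 2 and 3 had 3494, 7053 and 6887 CPM. Both libraries numbered 1 lay below the other 4, the reverse of Mt-co2, and the groups overlapped. Group means of 5717 ± 833 CPM (sg-MIAT) and 5811 ± 2009 CPM (sg-U6, SD, n = 3 each) differed by far less than either SD. The log2 fold change was -0.02 ± 0.34 (SE; 95% interval -0.83 to 0.79, edgeR adjusted p = 0.9995), and its sign changed with the replicate number as a block, in limma-voom and in 3 of the 6 fits that left out a library.

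Mt-cyb is the mitochondrially encoded subunit of complex III. It had 3516, 3917 and 4465 CPM in sg-MIAT 1, 2 and 3 and 3068, 5088 and 5527 CPM in sg-U6 1, 2 and 3. Again the lowest library of each group was the one numbered 1, while sg-U6 2 and sg-U6 3 lay above all sg-MIAT libraries. The log2 fold change was -0.20 ± 0.29 (SE; 95% interval -0.90 to 0.50, edgeR adjusted p = 0.9995). It stayed below 0 in each fit that left out a library, from -0.41 without sg-U6 1 to -0.04 without sg-U6 3.

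**Figure D1:**
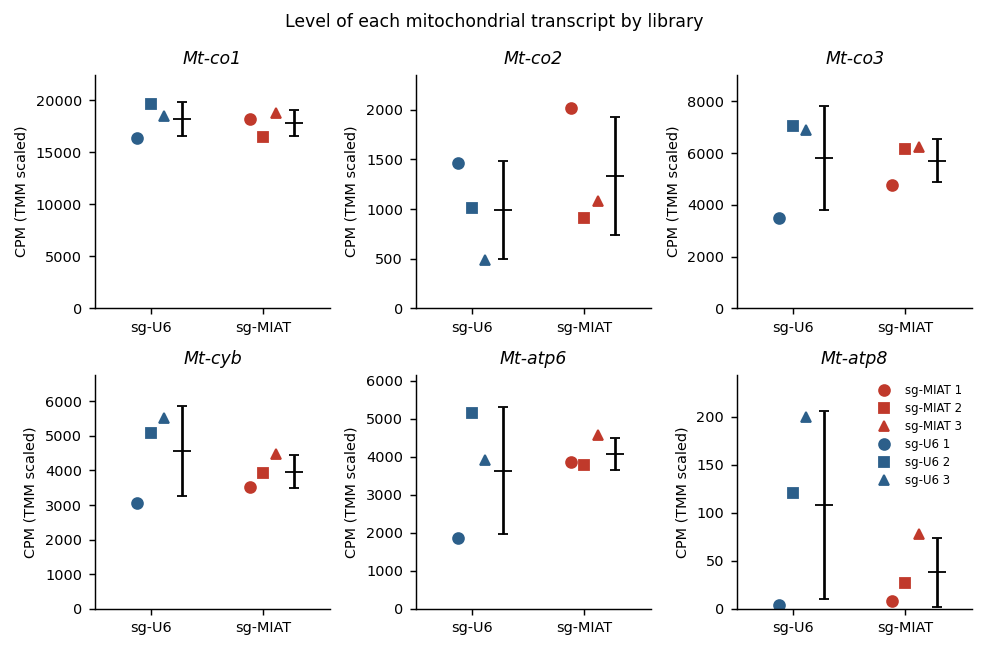
TMM-scaled CPM of each transcript by library (points, shape giving the replicate number), with the mean and SD of each group of 3 libraries beside them; every axis starts at 0. The groups overlap in all 6 panels, Mt-co1 spans 1.20-fold and Mt-atp8 spans 48.9-fold over the 6 libraries.

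Mt-atp6 encodes the ATP synthase subunit that lines the proton path. It had 3862, 3798 and 4574 CPM in sg-MIAT 1, 2 and 3, a tight group. The sg-U6 libraries 1, 2 and 3 had 1859, 5153 and 3906 CPM and so held both the lowest and the highest value. Within sg-U6 the range was 2.77-fold, against 1.20-fold within sg-MIAT. The log2 fold change was 0.16 ± 0.39 (SE; 95% interval -0.77 to 1.10, edgeR adjusted p = 0.9995). The library sg-U6 1 set its sign: without that library the value was -0.15, and without sg-U6 2 it was 0.50.

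Mt-atp8 encodes a small membrane subunit of the same complex, and it was the most variable of the 6. It was counted 97, 497 and 1308 times in sg-MIAT 1, 2 and 3, or 8.29, 27.1 and 77.9 CPM. In sg-U6 1, 2 and 3 it was counted 58, 1721 and 3255 times, or 4.08, 120.8 and 199.3 CPM. The 2 libraries numbered 1 were far below the rest, and the range was 48.9-fold over all libraries and 9.40-fold within sg-MIAT. Counting error was much smaller than these steps: the exact Poisson 95% interval was 44.0 to 75.0 counts around the lowest value and 454.3 to 542.7 around that of sg-MIAT 2, and such intervals cover counting error only. Among the 12044 genes tested, Mt-atp8 ranked 38 from the top by SD of log2(CPM + 0.1), and 1.02% of genes had a larger coefficient of variation in edgeR.

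The fitted level of Mt-atp8 was 2.86-fold lower in sg-MIAT, a log2 fold change of -1.51 ± 1.27 (SE), which did not pass (edgeR adjusted p = 0.9995). Its 95% interval, -4.57 to 1.54, reaches from 23.7-fold lower to 2.91-fold higher, so even large changes in either direction were not resolved. Without both libraries numbered 1, sg-MIAT 2 and 3 lay below sg-U6 2 and 3 and the log2 fold change was -1.60 ± 0.52 (SE), with an unadjusted edgeR p of 0.0242 and an adjusted p of 0.612. In that smaller fit 7.88% of all genes had an unadjusted p under 0.05. Without sg-U6 1 alone it was -2.07 ± 0.80 (SE, edgeR adjusted p = 0.402), in a fit where 11.9% of genes had an unadjusted p under 0.05. The value also moved to -2.60 without sg-MIAT 3 and to -0.72 without sg-U6 3. In the libraries numbered 1 the direction was opposite, with sg-MIAT 2.03-fold above sg-U6, while it was 4.46-fold and 2.56-fold below in numbers 2 and 3.

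Across the comparison of guides, none of the 6 transcripts passed the edgeR test at an adjusted p under 0.05, where 0% of all tested genes did. None reached an unadjusted edgeR p under 0.05 either, against 3.96% of all genes. DESeq2 called 0.443% of the genes to which it gave an adjusted p, and none of the 6 (adjusted p = 0.9999 for each). For 9.04% of tested genes the groups did not overlap in CPM, and for 0 of the 6 transcripts. Without both libraries numbered 1 the groups did not overlap for 3 of the 6 (Mt-co3, Mt-cyb and Mt-atp8, all lower in sg-MIAT), where 42.6% of tested genes did not. Of the 6 fitted values, 2 lay above 0 and 4 below, with a median of -0.03, the same as the median of all 12044 genes (-0.03). The median absolute log2 fold change was 0.18 over the 6 and 0.19 over all genes, while the median SE was 0.36 and 0.30. In the exact two-sided permutation test of each transcript, p ran from 0.4 for Mt-atp8 to 1 for Mt-co3, where 3 samples against 3 cannot go below 0.1.

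**Figure D2:**
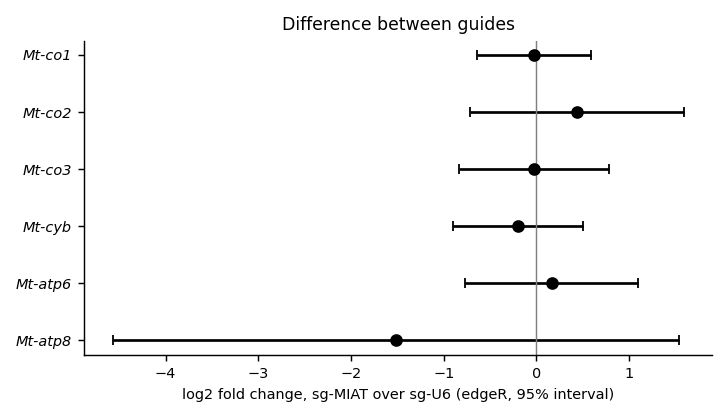
Fitted log2 fold change of each transcript, positive where sg-MIAT is higher (points), with its 95% interval from edgeR's quasi-likelihood fit of 3 against 3 libraries (bars). Each interval crosses 0; that of Mt-co1 runs from -0.64 to 0.59 and that of Mt-atp8 from -4.57 to 1.54.

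For most of these transcripts, both libraries numbered 1 lay to the same side of the other 4. Mt-co3, Mt-cyb and Mt-atp8 were lower in both libraries numbered 1 than in any of the other 4, a pattern shared by 27.5% of all tested genes. Mt-co2 was higher in both than in any of the other 4, as were 25.2% of tested genes. Mt-co1 and Mt-atp6 followed neither pattern: Mt-atp6 was low in sg-U6 1 but not in sg-MIAT 1. The pattern is thus common in these libraries and not particular to the 6.

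The replicate number took 84.9% of the log2 variance of Mt-atp8, 83.2% of that of Mt-co3, 73.6% for Mt-cyb, 67.6% for Mt-co2 and 48.5% for Mt-atp6. It took 20.9% for Mt-co1. Independent samples would give 40% on average. How widely such shares spread around 40% with 6 libraries was not computed, nor were the shares of all genes. Whether the number took more than independent samples would give was thus not tested by these shares. The guide took between 0.246% (Mt-co3) and 14.8% (Mt-co2), all under the 20% that independent samples would give. When edgeR was fitted with guide and number, the number term reached an unadjusted p under 0.05 for 2 of the 6, Mt-atp8 and Mt-co2, where 24.8% of all genes did. After adjustment it passed for neither (edgeR adjusted p = 0.108 and 0.162) and for 0% of all genes. What the number stands for is not given in the labels, and the part of culture, library or RNA quality in it was not tested. Mt-atp8 and Mt-cyb ordered the libraries alike and nearly as the first principal component did: sg-U6 1 and sg-MIAT 1 were lowest on each, sg-U6 2 and sg-U6 3 highest, in the same order, while sg-MIAT 2 and sg-MIAT 3 changed places.

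**Figure D3:**
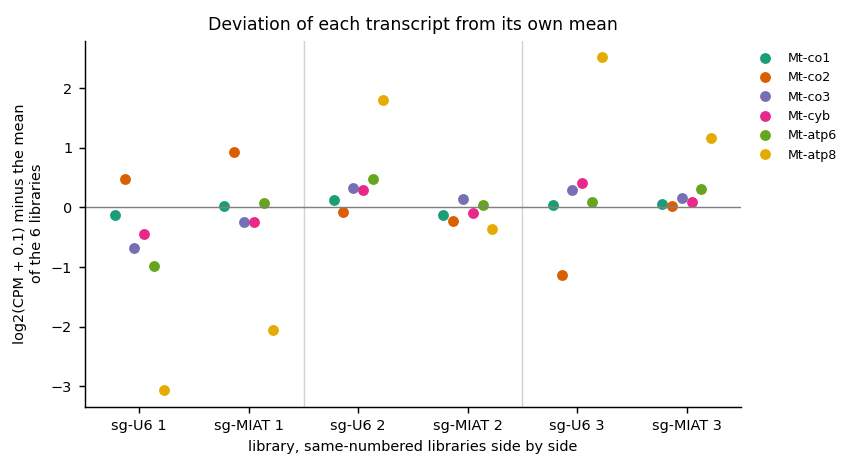
Each transcript's log2(CPM + 0.1) minus its own mean over the 6 libraries, with same-numbered libraries of sg-U6 and sg-MIAT side by side. Mt-atp8 (from -3.06 to 2.52) and Mt-co2 (from -1.13 to 0.93) lie on opposite sides of 0 in all libraries but sg-MIAT 2 and sg-MIAT 3, while Mt-co1 stays between -0.13 and 0.13.

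With the replicate number as a block, the SE of Mt-co2 was 0.28 and that of Mt-atp8 0.59, and the log2 fold changes were 0.49 and -0.999. Neither passed (edgeR adjusted p = 0.740 and 0.749). With the block, 7.62% of all genes had an unadjusted edgeR p under 0.05 and none of the 6 transcripts did. The block fit gave Mt-co1 -0.03 ± 0.21, Mt-co3 0.03 ± 0.22, Mt-cyb -0.16 ± 0.21 and Mt-atp6 0.28 ± 0.32 as log2 fold changes with their SE. DESeq2 with the block called 1.01% of genes and none of the 6. No transcript of the 6 differed in a single direction across all 3 numbers: in number 1 sg-MIAT was above sg-U6 for each of the 6, by 1.11- to 2.08-fold, and in number 2 it was below for each of the 6, by 1.11- to 4.46-fold. In number 3 Mt-co1, Mt-co2 and Mt-atp6 were above and Mt-co3, Mt-cyb and Mt-atp8 below. These directions were not counted over all genes, so they cannot be called particular to the 6. The 6 were measured in the same libraries and are not 6 separate observations. The same-numbered samples were taken as pairs from the data alone, which do not show that those numbered 2, or those numbered 3, belong together.

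The 6 transcripts come from 1 genome but did not keep fixed proportions. Among pairs of transcripts, Mt-co3 and Mt-cyb had the most similar profiles, with a root mean square difference of 0.15 in centred log2(CPM + 0.1) over the 6 libraries. Mt-co2 and Mt-atp8 had the least similar, at 2.56. Mt-co2 and Mt-co3 lay on the same side of their means in only 1 of 6 libraries, and Mt-cyb and Mt-atp8 in all 6. A ratio between transcripts within a library does not depend on library scaling, so it shows these steps directly.

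For each 1000 counts of Mt-co3, Mt-co2 had 423.9, 147.6 and 173.0 counts in sg-MIAT 1, 2 and 3. In sg-U6 1, 2 and 3 it had 420.4, 143.3 and 70.2 counts. The same-numbered libraries nearly coincided for numbers 1 and 2 and parted for number 3, over a 6.04-fold range. For each 1000 counts of Mt-co1, Mt-co2 ranged from 26.2 in sg-U6 3 to 110.7 in sg-MIAT 1, and its group means of 74.5 ± 31.4 (sg-MIAT) and 55.7 ± 31.9 (sg-U6, SD, n = 3 each) overlapped.

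Mt-atp8 changed against its messenger partner. For each 1000 counts of Mt-atp6 it had 2.15, 7.13 and 17.0 counts in sg-MIAT 1, 2 and 3. In sg-U6 1, 2 and 3 it had 2.19, 23.4 and 51.0 counts. Both libraries numbered 1 sat at the bottom with nearly equal values, and the range over the 6 libraries was 23.8-fold, while Mt-atp6 itself ranged over 2.77-fold in CPM. How reads in the overlap of Mt-atp8 and Mt-atp6, or in nuclear copies of mitochondrial DNA, were assigned is not stated in the labels. The part of read assignment in this range was not tested, and the values of Mt-atp8 are uncertain for that reason.

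Against Mt-co1, Mt-atp8 had the widest range, from 0.249 counts for each 1000 in sg-U6 1 to 10.8 in sg-U6 3, or 43.4-fold. Mt-co3, Mt-cyb and Mt-atp6 varied less. Mt-co3 ran from 212.9 (sg-U6 1) to 375.2 (sg-MIAT 2) counts for each 1000 of Mt-co1. Mt-cyb ran from 187.0 (sg-U6 1) to 299.1 (sg-U6 3), and Mt-atp6 from 113.3 (sg-U6 1) to 262.4 (sg-U6 2). The library sg-U6 1 was the lowest in the ratios of these 3 transcripts to Mt-co1.

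Over all 6 libraries the groups overlapped in each ratio given here, and this overlap rested partly on the libraries numbered 1. Without them, sg-MIAT was lower with no overlap for Mt-atp8 against Mt-atp6 (means of 12.1 and 37.2 counts for each 1000), Mt-atp8 against Mt-co1 (2.90 and 8.47) and Mt-cyb against Mt-co1 (238.0 and 279.1). It was higher with no overlap for Mt-co2 against Mt-co1 (56.4 and 38.8) and Mt-co2 against Mt-co3 (160.3 and 106.7). In these Mt-co2 ratios sg-U6 2 (51.5 and 143.3) lay close to sg-MIAT 2 (55.4 and 147.6). The gap between the means came mostly from sg-U6 3 (26.2 and 70.2). The groups still overlapped for Mt-co3 and Mt-atp6 against Mt-co1. With 2 libraries against 2, these separations are a description with no test. Without the libraries numbered 1, the groups did not overlap in CPM for 42.6% of tested genes. That share is for the CPM of single genes and is not a baseline for ratios. The ratios also share transcripts with each other, and no such share was computed for ratios of other genes.

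**Figure D4:**
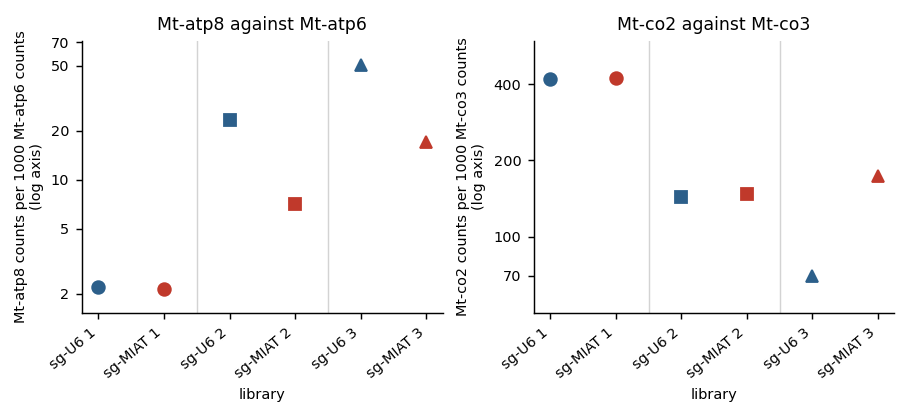
Counts of Mt-atp8 for each 1000 counts of Mt-atp6 (left) and of Mt-co2 for each 1000 counts of Mt-co3 (right) in each library, on log axes. The libraries numbered 1 of both guides nearly coincide in each panel, at 2.19 and 2.15 on the left and 420.4 and 423.9 on the right.

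As a share of the summed counts of the 6, Mt-co1 took 51.6% to 56.3% in 5 libraries and 62.4% in sg-U6 1. Mt-co2 made up 6.23% and 5.58% of the sum in sg-MIAT 1 and sg-U6 1 and 1.36% to 3.06% in the other 4. These shares describe how each library divides its reads and are not corrected for length.

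Among 7768 other genes with a mean of at least 10 CPM, the profile closest to the mean centred profile of the 6 was that of ENSRNOG00000006813, with a root mean square difference of 0.051 on the log2 scale over 6 libraries. It had 77.0, 88.8 and 114.1 CPM in sg-MIAT 1, 2 and 3 and 49.3, 122.6 and 118.6 CPM in sg-U6 1, 2 and 3. The next was ENSRNOG00000007051, at 0.074, with 34.7 CPM in sg-U6 1 as its lowest and 73.7 CPM in sg-U6 2 as its highest level. The mean profile itself was lowest in sg-U6 1 (-0.81) and highest in sg-U6 2 (0.49), and Mt-atp8 contributes most of its range. Both genes overlapped between the groups, as did the mean profile they were chosen to match. Neither was called by edgeR (adjusted p = 0.9995 for each), where 0% of all tested genes were.

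Leaving out single libraries showed how far each estimate leaned on 1 sample. The log2 fold change of Mt-co1 stayed between -0.09 and 0.04 and that of Mt-cyb between -0.41 and -0.04. Mt-co3 ranged from -0.28 to 0.14, Mt-atp6 from -0.15 to 0.50, Mt-co2 from 0.001 to 0.84 and Mt-atp8 from -2.60 to -0.72. None of these fits called any of the 6 transcripts, and each called 0% of all genes it tested. Without both libraries numbered 1, the log2 fold changes in edgeR were -0.11 ± 0.27 for Mt-co1, 0.42 ± 0.37 for Mt-co2, -0.16 ± 0.23 for Mt-co3, -0.34 ± 0.23 for Mt-cyb and -0.11 ± 0.26 for Mt-atp6 (SE), with adjusted p of at least 0.676.

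**Figure D5:**
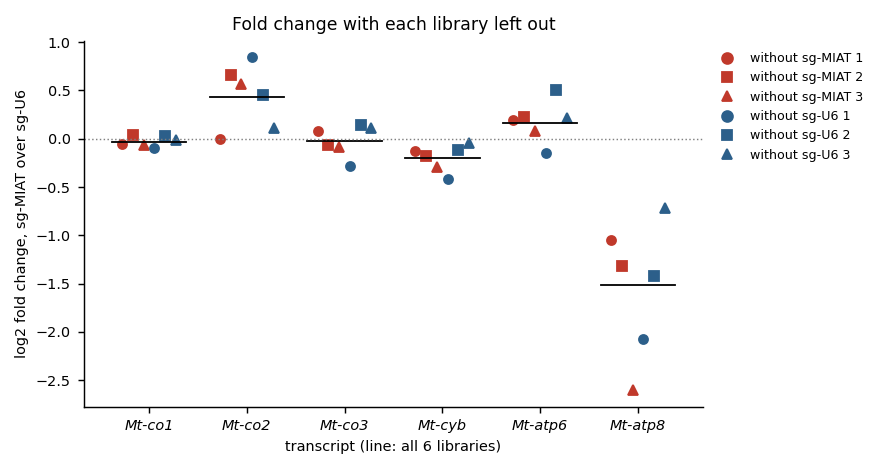
Log2 fold change of each transcript (positive where sg-MIAT is higher) with all 6 libraries (line) and with each library left out in turn (points, colour and shape giving the library left out), from edgeR. Mt-co1 stays between -0.09 and 0.04, while Mt-atp8 moves between -2.60 without sg-MIAT 3 and -0.72 without sg-U6 3.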

How the data were processed

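Poly(A)-selected, dUTP-stranded libraries of 6 samples were sequenced, per the labels' protocols. Build Rnor_6.0 and the tools HISAT2 and DESeq2 appear in the submitters' processing notes. Not given in the sources used here are the read counter, the annotation release and the use of strand. The authors deposited raw counts per gene and a table named for FPKM whose deposited values are CPM without gene length; CPM times library total gave whole reads (within 0.01) for 99.985% of values above 0, and edgeR on those reads called 0 genes.

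The members and lists were chosen with earlier results of these data known. The named genes are the 6 transcripts and the 2 genes with the closest mean profile. Lists of nuclear respiratory genes and of cell type markers were not used, since the reference table (47357 genes) paired 0 identifiers with a symbol.

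The main test was edgeR 4.0.16 (R 4.3.3), quasi-likelihood F test, TMM, default filter (minimum count 10, minimum total 15), Benjamini-Hochberg over 12044 genes at 0.05. An SE is the log2 fold change over the root of F. Alternatives were RLE or library totals, scaling without the 6 transcripts, other filters, DESeq2 1.42.0, limma 3.58.1 (voom, or trend on log2 of CPM plus 1 or 0.1), a block for the replicate number, and leaving out each sample. Across genes, samples with the same number deviated together from their group means, with r of 0.723, 0.130 and 0.335 for the numbers 1, 2 and 3. On that ground the numbers were taken to pair the samples, from the data alone. Each group mean includes its library numbered 1, which stood apart on the first principal component. For that reason r for numbers 2 and 3 can be positive without pairing. Samples with different numbers were not compared in this way, so pairing within numbers 2 and 3 was not shown. Fits were tested on simulated data.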

Additional observations from a re-analysis of the deposited data

How the results depend on the processing

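Of 120 alternative values of the 6 fold changes (20 settings each), none passed the threshold, the smallest adjusted p being 0.402 and the largest 0.99999, and 10 changed sign. With the replicate block, Mt-co3 was 0.035 in edgeR and 0.041 in DESeq2, and it was 0.031 in limma-voom, against -0.024. The block changed no call of the 6. Mt-atp6 was -0.11 without both samples numbered 1, a fit chosen after seeing the data, as was that on recovered reads. With 1 library left out, log2 fold changes ranged from -0.092 to 0.037 (Mt-co1), -0.28 to 0.14 (Mt-co3) and -0.15 to 0.50 (Mt-atp6). Mt-co2, Mt-cyb and Mt-atp8 kept their sign in all settings, which reuse the same 6 libraries. The value of Mt-co2 was only 0.001 without sg-MIAT 1, and that of Mt-cyb was -0.04 without sg-U6 3. Between the libraries numbered 1 and those numbered 2, Mt-co2, Mt-cyb and Mt-atp8 each differed in direction. DESeq2 called 60 genes of the whole table, or 130 with the replicate block; the other settings called 0, as did each fit without 1 library (0 to 0). At an unadjusted p under 0.05 edgeR gave 477 genes, 918 with the block. The difference in summed share, -0.224 percentage points, was -0.034 with TMM-scaled totals, -0.689 to 0.052 with 1 library left out and, added after seeing the data, -0.521 without both samples numbered 1. Of the 6, Mt-atp8 had the fewest counts, down to 58 in sg-U6 1, though counting error was much smaller than its spread between libraries.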
